A study of Homo sapiens with 16 samples.

Results

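The annexins are a family of calcium-dependent phospholipid-binding proteins, and 10 of their genes (ANXA1 to ANXA8, ANXA10 and ANXA11) were followed here in bladder cancer cells after knock-down of the forkhead transcription factor FOXA1. Members were taken by gene name, 10 of the 58721 rows of the count table, and the family was chosen by the RT112 counts of ANXA1, which rose under both FOXA1 siRNAs. The RT112 comparison of FOXA1 siRNA with control siRNA therefore chose the family, and every member's value in it is given here as a description with no test. The samples were 16 QuantSeq 3' RNA-seq libraries from 2 human bladder cancer lines, RT112 (classed luminal papillary in the study) and SCaBER (classed basal/squamous). Each line was transfected at 10 nM with siControl.1, siControl.2, siFOXA1.1 or siFOXA1.2, with 2 libraries per siRNA and line, numbered by experiment batch. RT112 grew in RPMI and SCaBER in DMEM, so line and medium cannot be told apart, and all libraries, controls included, came from transfected cells. Nothing in the labels says whether a batch was a separate culture, so the p-values measure the spread between these libraries.

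Annexins bind negatively charged membrane lipids when calcium rises, through a conserved core of repeats, and differ mainly in their N-terminal tails. The tails recruit partners, among them the S100 proteins, which is how ANXA2 forms a tetramer with S100A10 and ANXA1 pairs with S100A11. The family is known for work in membrane repair, vesicle traffic and the cortical actin skeleton, and ANXA1 is also a glucocorticoid-induced mediator that acts on formyl peptide receptors. In bladder urothelium FOXA1 is known as a luminal factor.

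Library totals ran from 6622470 to 7604580 counts in RT112 and from 4528510 to 6914950 in SCaBER. Levels are counts scaled to the library total (CPM), and 3 counts, taken as the detection floor, corresponded to 0.394 to 0.662 CPM. FOXA1 itself stood at 18.2 to 35.0 CPM in the 4 RT112 control libraries, at 9.18 to 16.0 under siFOXA1.2 and at 1.32 to 3.24 under siFOXA1.1. In SCaBER FOXA1 was at 0.499 to 2.43 CPM in the controls and at 0 to 0.951 under the FOXA1 siRNAs, so its knock-down there could hardly be measured at this depth. The luminal genes GATA3 and UPK2 averaged 440.1 and 336 CPM in RT112 controls against 12.3 and 13.7 in SCaBER, and the basal keratins KRT6A and KRT14 averaged 5.25 and 3.15 CPM against 915 and 544. Of the other basal markers, KRT16 was higher in RT112 (56.0 against 30.4 CPM) and TP63 stood at 13.3 against 16.1 CPM. The luminal markers KRT20 and UPK3A were absent or nearly so in both lines, at no more than 5 and 0 counts per library. Among markers of other cell types, PTPRC, CD3E, COL3A1 and DCN had 0 counts in every library, but LUM averaged 97.6 CPM in RT112 controls and 12.1 CPM in SCaBER controls, COL1A1 averaged 8.76 and 9.07 CPM, and PECAM1 and LYZ reached 77 and 22 counts. The 5 fibroblast markers summed to 84.6 to 146 CPM over the RT112 libraries and 10.0 to 43.96 CPM over the SCaBER libraries, the leukocyte markers to at most 3.22 CPM and the endothelial ones to at most 11.2 CPM, and their part in the results was not tested. Mitochondrial transcripts took 25.7% to 28.2% of counts in the RT112 siFOXA1.1 libraries and 18.0% to 21.2% in the other RT112 libraries. With mitochondrial genes left out of the fit, an alternative chosen after seeing the data, no member's call changed.

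Per transcript length (TPM), ANXA2 was by far the most abundant annexin in both lines. Under control siRNA it reached 382 ± 45.5 TPM in RT112 and 954 ± 89.9 TPM in SCaBER (SD, n = 4 libraries each), which was 67.3% and 72.0% of the summed TPM of the 10 members. In RT112 the order then ran ANXA11 (103 ± 22.1 TPM), ANXA7 (37.1 ± 6.65), ANXA1 (24.2 ± 6.33) and ANXA5 (9.14 ± 2.42), with ranges that did not overlap from one to the next. From ANXA4 (5.25 ± 0.67 TPM) through ANXA10, ANXA8, ANXA3 and ANXA6 the ranges of neighbours overlapped. In SCaBER the ranges of ANXA11 (99.2 ± 19.0 TPM), ANXA1 (89.5 ± 12.6), ANXA5 (71.4 ± 17.1), ANXA7 (51.4 ± 15.8) and ANXA3 (41.4 ± 13.2) each overlapped that of the next. ANXA3 thus stood near the bottom of the order in RT112 and in the middle of it in SCaBER, while ANXA6 was last in both. The kit reads transcript 3' ends, so TPM divides by a length that the reads do not cover, and ranking by CPM instead moved 6 members in RT112 and 4 in SCaBER to another place.

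**Figure D1:**
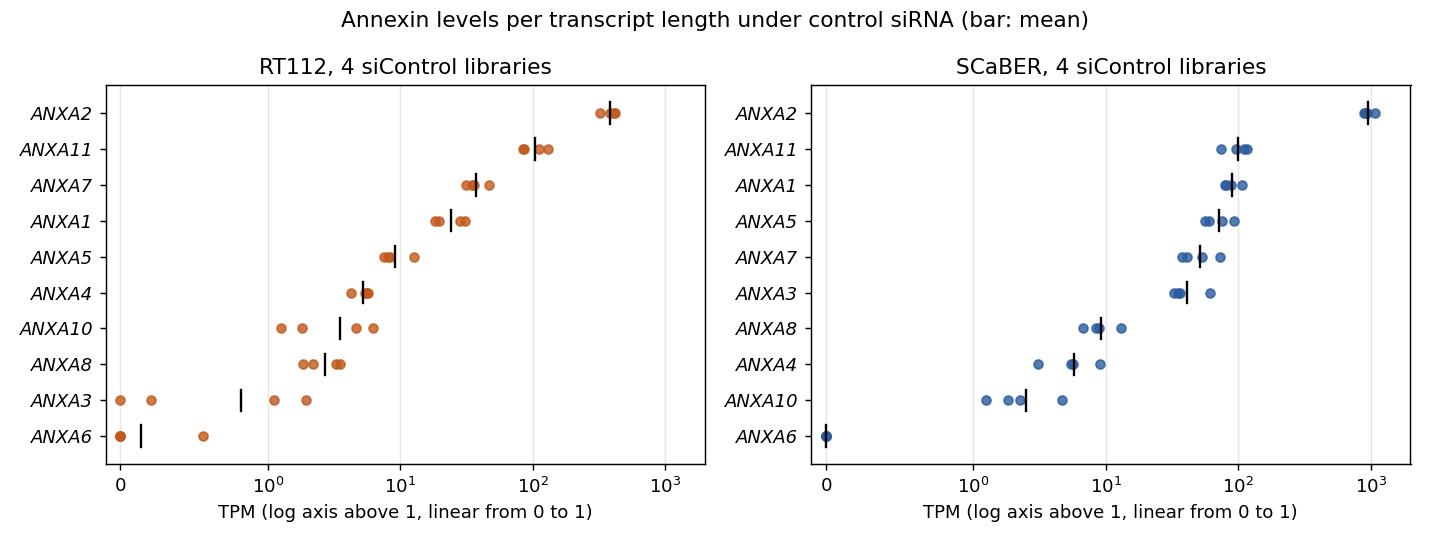
TPM of the 10 annexins in the 4 siControl libraries of RT112 (left) and of SCaBER (right), ordered by mean; each point is a library, the bar is the mean, and the axis is linear from 0 to 1 and logarithmic above. ANXA2 leads in both lines at means of 382 and 954 TPM, and ANXA3 averages 0.82 TPM in RT112 and 41.4 TPM in SCaBER.

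The start-site windows of 4 members are shown: ANXA1, on which the choice rests, ANXA2, the most abundant, and ANXA6 and ANXA10, each at 0 counts under a different FOXA1 siRNA in RT112. Each is the RefSeq window on GRCh38.p14 from 250 bases before to 50 bases after the annotated start, read along the gene's strand, with matches to any searched motif in capitals. The motifs were the forkhead word TGTTTAC with its variants, of which TGTTTGC is the first and the second is TATTTAC, the AP-1 word TGANTCA and the start-site word TATAAA, each on both strands, and no matches overlapped in these windows.
ANXA1, chr9:73151615-73151914, plus strand: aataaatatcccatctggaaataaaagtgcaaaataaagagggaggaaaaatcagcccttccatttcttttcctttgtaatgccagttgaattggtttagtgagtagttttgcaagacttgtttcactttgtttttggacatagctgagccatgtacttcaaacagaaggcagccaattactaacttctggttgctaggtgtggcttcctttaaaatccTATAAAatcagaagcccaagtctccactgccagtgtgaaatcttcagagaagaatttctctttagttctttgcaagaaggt
ANXA2, chr15:60397937-60398236, minus strand: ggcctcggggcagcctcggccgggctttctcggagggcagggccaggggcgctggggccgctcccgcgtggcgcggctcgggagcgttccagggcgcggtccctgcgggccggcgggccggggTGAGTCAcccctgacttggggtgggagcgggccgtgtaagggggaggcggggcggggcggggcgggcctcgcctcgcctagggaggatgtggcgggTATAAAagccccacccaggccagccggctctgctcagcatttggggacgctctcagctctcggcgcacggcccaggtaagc
ANXA6, chr5:151157730-151158029, minus strand: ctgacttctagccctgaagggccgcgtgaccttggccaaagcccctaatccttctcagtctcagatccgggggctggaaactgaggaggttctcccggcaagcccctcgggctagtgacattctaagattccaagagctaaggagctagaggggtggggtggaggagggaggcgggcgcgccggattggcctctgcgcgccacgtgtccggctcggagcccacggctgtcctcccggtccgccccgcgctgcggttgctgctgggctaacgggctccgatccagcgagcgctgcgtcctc
ANXA10, chr4:168092287-168092586, plus strand: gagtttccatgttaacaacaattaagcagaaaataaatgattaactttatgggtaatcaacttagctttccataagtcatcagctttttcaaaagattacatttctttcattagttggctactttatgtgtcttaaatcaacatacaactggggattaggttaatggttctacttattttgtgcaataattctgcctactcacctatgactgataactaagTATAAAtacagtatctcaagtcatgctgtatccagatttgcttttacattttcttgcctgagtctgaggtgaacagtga

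Windows were listed for 9 of the 10 members, 13 windows in all. None of the 13 held a forkhead word, against 9.58% of the 34943 windows of all genes, and 1, that of ANXA2, held the AP-1 word, against 7.72%. TATAAA was found in 4 of the 13 windows and in 11.6% of all windows. It began 31 bases before the start in ANXA1 and in ANXA2, 29 bases before it in ANXA10 and 61 bases before it in a window of ANXA11. The ANXA1 and ANXA10 windows were AT-rich, with 37.7% and 32.7% G and C, below the 10th percentile of all windows (39%) for both, whereas those of ANXA2 and ANXA6 held 76% and 66.3% against a median of 58.7%. A match of letters is a description of the window only, and its absence leaves the rest of the locus unread.

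The lines differed first. This comparison asked how the annexins stand in a luminal and a basal line before FOXA1 is touched, and it shares its 4 RT112 control libraries with the contrast that chose the family. Of 9 members tested, 5 were lower in RT112 than in SCaBER, none was higher, and ANXA6 was too low to test. ANXA1 and ANXA3 are among the 5, and neither call is an independent test, for reasons given with their values. Among all 12309 genes tested, 43.4% differed between the lines and 22.2% were lower in RT112. The members' median log2 fold change was -0.92, that of all genes 0.02.

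ANXA3, a small annexin whose exact role is less well known than those of its relatives, differed most. It was at 0, 3.02, 0.532 and 5.00 CPM in the RT112 controls (0, 20, 4 and 36 counts) and at 72.9, 118, 66.5 and 72.7 CPM in the SCaBER controls. Every RT112 library lay far below every SCaBER library, and the log2 fold change was -5.27 with an SE of 0.60 (edgeR quasi-likelihood test with Benjamini-Hochberg adjustment, adjusted p = 4.88e-06). ANXA3 passed the low-count filter only through the SCaBER libraries, where it is high, so its call is not an independent test. ANXA5, the classical phosphatidylserine-binding annexin, was at 11.2 to 19.3 CPM in RT112 controls and at 67.8 to 107 CPM in SCaBER controls. Its log2 fold change was -2.56 (SE 0.23, edgeR adjusted p = 3.66e-07), and its 8 RT112 libraries lay below its 8 SCaBER libraries whatever the siRNA.

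ANXA1 was at 43.4, 46.8, 62.8 and 70.7 CPM in RT112 controls and at 149, 138, 161 and 191 CPM in SCaBER controls. The 2 groups did not overlap, and the log2 fold change was -1.50 (SE 0.18). The RT112 control values of ANXA1 also served to choose the family, so this difference is a description and no independent test. ANXA2, the plasminogen and S100A10 partner, followed at 1479 to 1821 CPM against 2957 to 3723 CPM, a log2 fold change of -0.92 (SE 0.11, edgeR adjusted p = 6.27e-06). Each of these 4 calls was kept in all 15 alternatives run, which does not make those of ANXA1 and ANXA3 independent tests.

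ANXA8, an annexin of stratified epithelia, was at 4.59 to 8.55 CPM in RT112 and 13.0 to 24.6 CPM in SCaBER controls, a log2 fold change of -1.37 (SE 0.34, edgeR adjusted p = 0.00466). Its counts are uncertain, since all 426 windows of 75 bases in the last 500 bases of its transcript also occur in the near-identical copy ANXA8L1. ANXA8L1 had 0 to 68 counts per library, and with both rows summed, a choice made after seeing the data, the difference was -0.80 and no longer passed (edgeR adjusted p = 0.0602). For ANXA2 none of 426 such windows occurred in its processed pseudogene ANXA2P2, which had at most 3 counts.

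The remaining members were not called between the lines. ANXA11, which with ANXA7 carries a long N-terminal tail that binds ALG-2 family proteins, averaged 450.5 ± 110 CPM in RT112 and 331 ± 67.5 CPM in SCaBER controls (SD, n = 4), a log2 fold change of 0.46 (95% interval 0.05 to 0.87, edgeR adjusted p = 0.065). It was called in 3 of the 15 alternatives. ANXA7, described for roles in secretion, differed by -0.07 on the log2 scale (interval -0.51 to 0.37) and ANXA4, abundant in secretory epithelia, by 0.27 (-0.34 to 0.88). ANXA10, a divergent annexin known from gastric and urothelial tissue, differed by 0.80 (-0.76 to 2.36), at 8 to 42 counts in RT112 and 4 to 21 in SCaBER controls. ANXA6, the large annexin with a duplicated core, had 0 counts in all 8 SCaBER libraries.

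**Figure D2:**
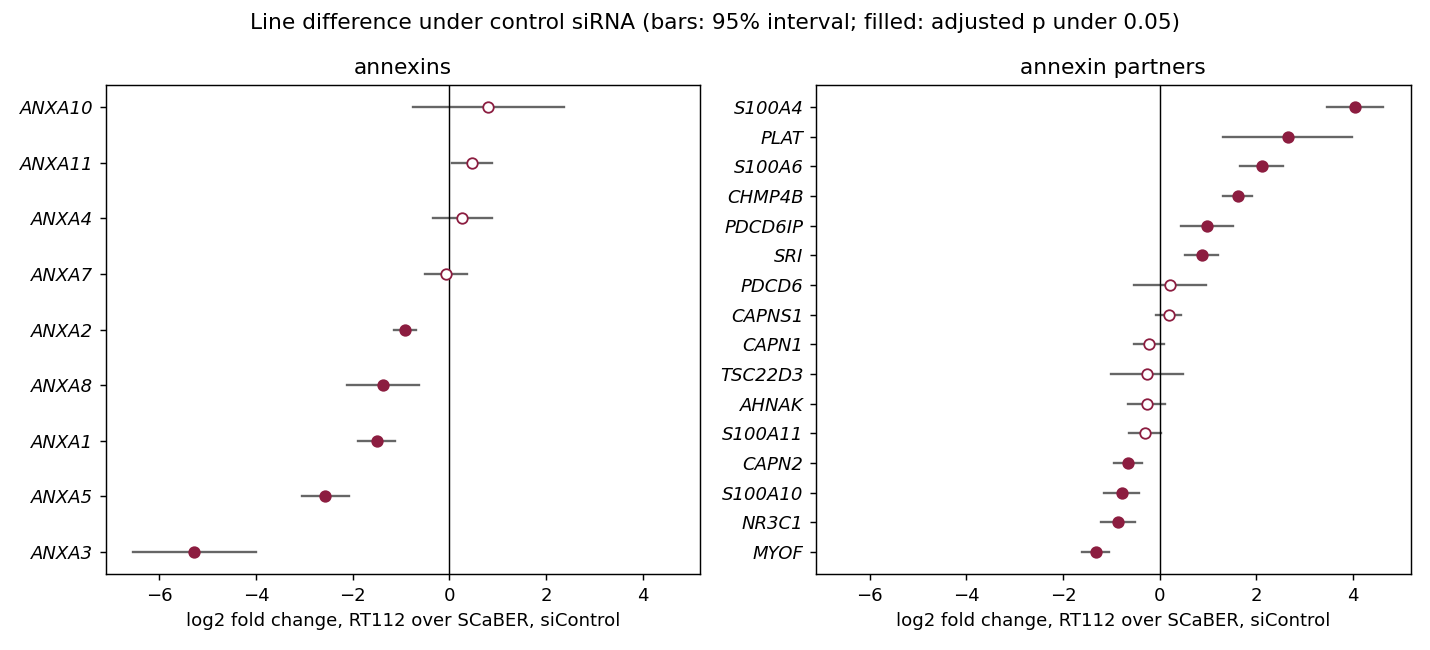
Log2 fold change of RT112 over SCaBER under control siRNA for the 9 annexins tested (left) and 16 annexin partners tested (right); bars are 95% intervals from the edgeR fit, filled points have an adjusted p under 0.05 and open points do not. The 5 filled annexins, from ANXA2 at -0.92 to ANXA3 at -5.27, are all lower in RT112, whereas the 10 filled partners lie on both sides of 0. The calls of ANXA1 and ANXA3 are not independent tests. ANXA9, outside the list of members and not drawn, was higher in RT112 (1.97).

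ANXA1 in RT112 was higher in each library with a FOXA1 siRNA than in any control library. The controls held 43.4, 46.8, 62.8 and 70.7 CPM, siFOXA1.1 gave 112 and 149 CPM and siFOXA1.2 gave 127 and 126 CPM. Against both controls the log2 fold changes were 1.39 (SE 0.16) and 1.22 (SE 0.16). Within batches 1 and 2 the siFOXA1.1 differences of log2(CPM + 0.5) were 1.09 and 1.37, and the siFOXA1.2 differences 1.28 and 1.12. Under FOXA1 siRNA the RT112 range of 112 to 149 CPM overlapped the low end of the SCaBER control range of 138 to 191 CPM. The control siRNAs themselves stood apart in RT112, siControl.2 above siControl.1 in both libraries.

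**Figure D3:**
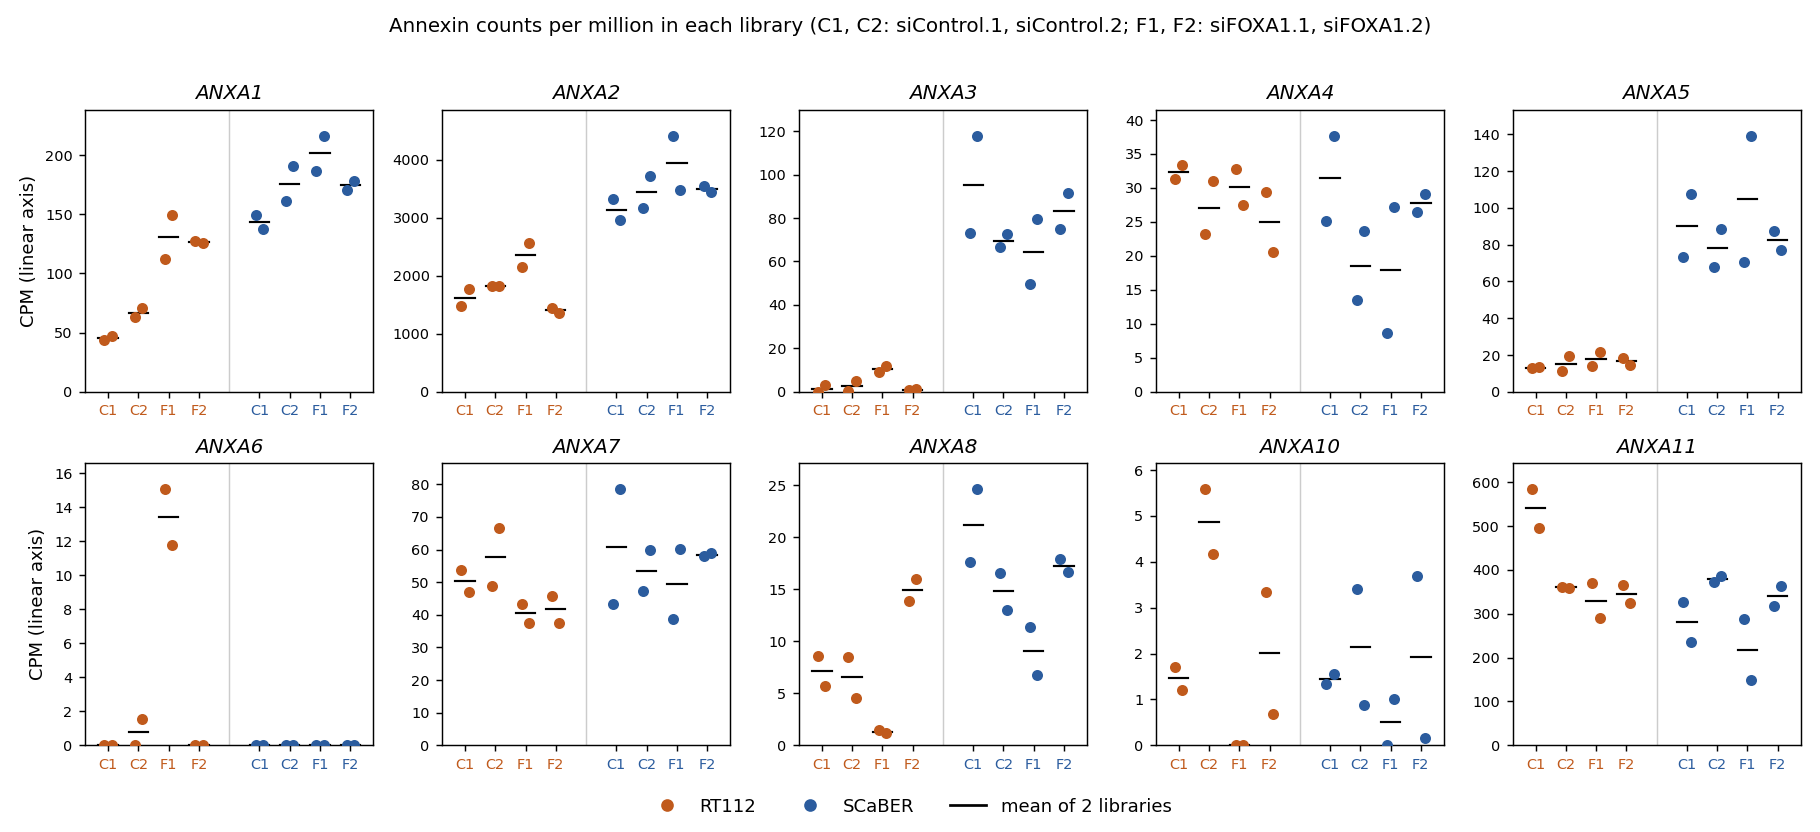
CPM of each of the 10 annexins in the 16 libraries, on a linear axis from 0 in every panel; points are libraries (RT112 left, SCaBER right in each panel) and the bar is the mean of the 2 libraries of an siRNA. In RT112 the 4 FOXA1 siRNA libraries of ANXA1 lie at 112 to 149 CPM above all controls, ANXA6 is seen at 11.8 to 15.1 CPM under siFOXA1.1, and the ANXA8 libraries are lowest under siFOXA1.1 and highest under siFOXA1.2.

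The other members did not follow ANXA1 as a group, and several took different values under the 2 FOXA1 siRNAs. The contrasts share their 4 control libraries and are set side by side here.

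ANXA2 was at 1479, 1763, 1817 and 1821 CPM in RT112 controls, at 2146 and 2571 CPM under siFOXA1.1 and at 1446 and 1364 CPM under siFOXA1.2. All siFOXA1.1 values were above and all siFOXA1.2 values below the controls, with log2 fold changes of 0.59 (SE 0.09) and -0.27 (SE 0.10). ANXA8 went the other way, from 4.59 to 8.55 CPM in controls to 1.46 and 1.18 CPM under siFOXA1.1 and to 13.8 and 16.0 CPM under siFOXA1.2. Its log2 fold changes were -2.23 (SE 0.62) and 1.14 (SE 0.50), again with no overlap with the controls in either direction.

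ANXA6 was near absent from RT112 except under siFOXA1.1. It had 0, 0, 0 and 11 counts in the controls, 103 and 80 counts (15.1 and 11.8 CPM) under siFOXA1.1 and 0 counts under siFOXA1.2. It fell under the low-count filter, so no fit was made. Against the floor of 3 counts in each library, siFOXA1.1 was at least 31.7-fold higher than siFOXA1.2. ANXA10 had the opposite pattern, with 13, 8, 42 and 30 counts in the controls, 0 in both siFOXA1.1 libraries, and 23 and 5 under siFOXA1.2, so the controls were at least 7.19-fold higher than siFOXA1.1. ANXA3 rested on few counts too, with 0, 20, 4 and 36 in the controls, 62 and 81 under siFOXA1.1, and 5 and 9 under siFOXA1.2.

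ANXA4 (20.6 to 33.4 CPM over the 8 RT112 libraries) and ANXA5 (11.2 to 21.7 CPM) overlapped the controls under both FOXA1 siRNAs. ANXA7 lay at 37.6 to 45.9 CPM under the FOXA1 siRNAs, below its 4 controls at 47.1 to 66.7 CPM, with log2 fold changes of -0.28 (SE 0.21) and -0.35 (SE 0.21). ANXA11 was at 585 and 497 CPM with siControl.1 but 362 and 359 CPM with siControl.2, and its FOXA1 siRNA libraries, at 290.2 to 370.4 CPM, lay below both siControl.1 libraries.

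**Figure D4:**
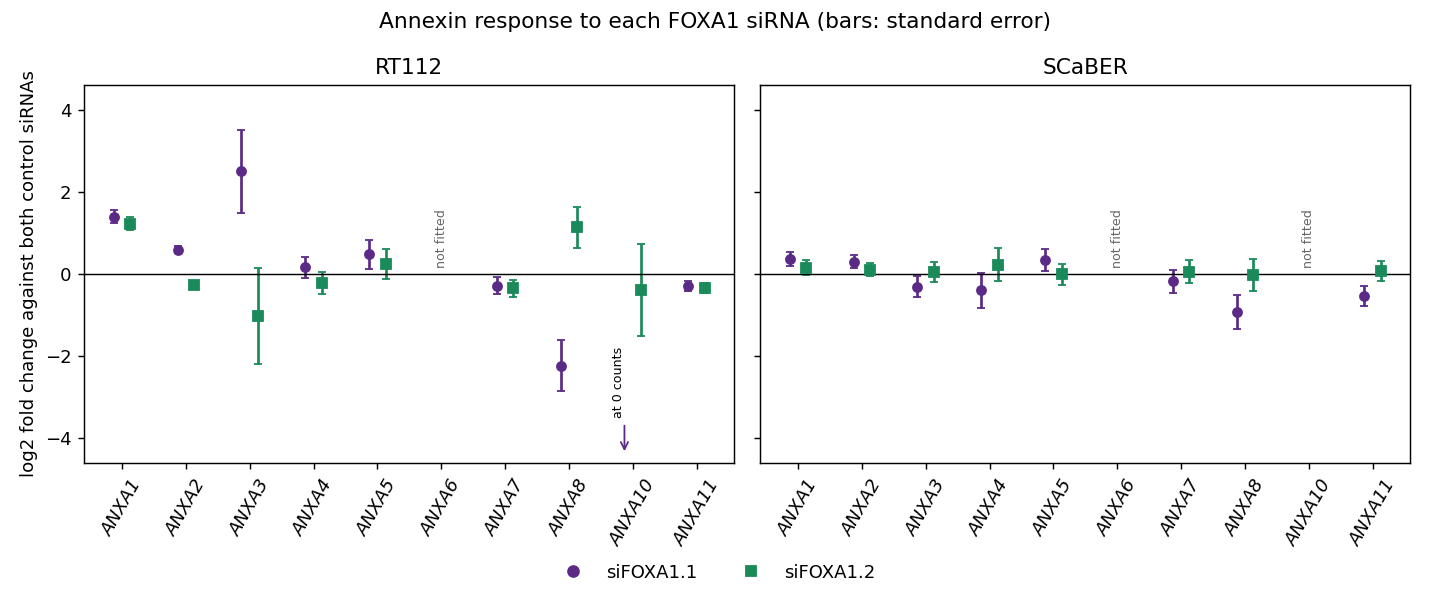
Log2 fold change against both control siRNAs under siFOXA1.1 (circles) and siFOXA1.2 (squares) in RT112 (left) and SCaBER (right); bars are standard errors, the arrow marks ANXA10 at 0 counts under siFOXA1.1, and members under the low-count filter are marked as not fitted. In RT112 ANXA1 is at 1.39 and 1.22 while ANXA2 and ANXA8 lie on opposite sides of 0 under the 2 siRNAs. ANXA3 and ANXA4 do too, but their siFOXA1.2 bars cross 0 (ANXA3 at -1.02, SE 1.17, and ANXA4 at -0.22, SE 0.26).

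A direct comparison of the FOXA1 siRNAs asked where they differ, and it contrasts no control library, although its libraries also served to choose the family. Of 9 members tested in RT112, 3 differed, beside 28.1% of 11986 genes. ANXA2 was higher under siFOXA1.1 by 0.87 on the log2 scale (SE 0.11, edgeR adjusted p = 1.57e-05). ANXA8 was lower under siFOXA1.1, with a log2 fold change of -3.37 (95% interval -4.80 to -1.93, edgeR adjusted p = 0.00119). Both calls were kept in all alternatives run. ANXA10, at 0 counts in both siFOXA1.1 libraries, was lower (edgeR adjusted p = 0.027), at least 4.58-fold against the floor. It passed the low-count filter only through control and siFOXA1.2 libraries, so its call is not an independent test. The call was also lost in 5 of 14 alternatives, each a fit without 1 library. ANXA3 was at 9.08 and 11.9 CPM under siFOXA1.1 and 0.729 and 1.23 CPM under siFOXA1.2, a log2 fold change of 3.52 (interval 0.68 to 6.35, edgeR adjusted p = 0.0603). It passed in 6 of 14 alternatives, the replicate block among them (3.74, adjusted p = 0.0392). ANXA3 met the low-count filter only through siFOXA1.1 and control libraries, so these values are not an independent test either. ANXA1 differed by 0.16 between the siRNAs (interval -0.23 to 0.56), and ANXA4, ANXA5, ANXA7 and ANXA11 had intervals that included 0. FOXA1 itself was lower under siFOXA1.1 than under siFOXA1.2 in these libraries, by a log2 fold change of -2.34 (SE 0.50, edgeR adjusted p = 0.00181).

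SCaBER libraries were not used to choose the family, and no annexin was called in them under these siRNAs. Under siFOXA1.1, 0 of the 8 members tested passed edgeR's threshold, beside 9.26% of 11902 genes, and 3 had an unadjusted p under 0.05. With so few members, 0 of 8 is near that share and sets the annexins apart from no other genes. The 2 SCaBER siFOXA1.1 libraries also differed more than any other duplicates, with a chi-square per degree of freedom of 36.8 against 8.56 to 23.4. DESeq2 and limma also called 0. ANXA1 was at 149, 138, 161 and 191 CPM in the controls, 187 and 217 CPM under siFOXA1.1 and 171 and 178 CPM under siFOXA1.2. The siFOXA1.1 libraries overlapped the top of the controls, and the log2 fold change was 0.37 (95% interval 0.00 to 0.74, edgeR adjusted p = 0.214). Its siFOXA1.2 value was 0.15 (-0.22 to 0.53, edgeR adjusted p = 0.999).

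ANXA8 was lower under siFOXA1.1 than in any SCaBER control, at 11.4 and 6.80 CPM against 13.0 to 24.6 CPM. Its log2 fold change of -0.93 (interval -1.81 to -0.04) did not pass (edgeR adjusted p = 0.194), and summed with ANXA8L1, whose siFOXA1.1 libraries lay above all controls, it was -0.13. ANXA11 was at 287 and 149.5 CPM under siFOXA1.1 against 237 to 385 CPM in controls, a log2 fold change of -0.54 (-1.07 to -0.01, edgeR adjusted p = 0.206). Without siFOXA1.1 replicate 1 that value was -1.13 and passed (edgeR adjusted p = 0.00271). ANXA2 had 4413 and 3475 CPM against 2957 to 3723 CPM, 0.30 on the log2 scale (-0.03 to 0.62, edgeR adjusted p = 0.262), and passed without siFOXA1.1 replicate 2 (0.50, edgeR adjusted p = 0.0332). ANXA3, ANXA4, ANXA5 and ANXA7 had siFOXA1.1 log2 fold changes from -0.40 to 0.34 with intervals that included 0.

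Under siFOXA1.2, edgeR called 0 of 8 SCaBER members, beside 0.042% of genes, with 0 at an unadjusted p under 0.05 and 0 by DESeq2 and limma. Between the 2 FOXA1 siRNAs in SCaBER edgeR, DESeq2 and limma called 0 of 8, beside 4.85% of genes by edgeR, with ANXA11 at an unadjusted p under 0.05. ANXA10 stayed under the filter at 0 to 24 counts, and its libraries under either FOXA1 siRNA overlapped the controls.

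Whether the lines responded differently was tested as a line-by-siRNA term over all 16 libraries, which include the RT112 libraries that chose the family. For siFOXA1.1, 1 of 9 members was called, beside 3.14% of 13701 genes. It was ANXA1, whose RT112 rise chose the family and enters this term, so the call is no independent test. Its RT112 change exceeded its SCaBER change by 1.00 on the log2 scale (SE 0.24), and by 1.07 (SE 0.24) for siFOXA1.2. Both values are given as a description. ANXA3 had a line difference of 2.82 for siFOXA1.1 (interval 1.15 to 4.48, edgeR adjusted p = 0.06), which passed with the replicate block (3.18, adjusted p = 0.00913). ANXA8 differed by -1.32 (interval -2.69 to 0.06) for siFOXA1.1 and by 1.16 (-0.10 to 2.41) for siFOXA1.2, neither called. For siFOXA1.2 edgeR called 0 of 9 members, beside 0.0438% of genes (6 genes, or 12 with the replicate block), with 1 at an unadjusted p under 0.05. DESeq2 called 1, ANXA1, and limma 0.

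The control siRNAs were compared with each other as the background of the design. In RT112, 1 of 9 members differed, ANXA11, by 0.65 on the log2 scale (SE 0.13, edgeR adjusted p = 0.0125), beside 2.36% of genes. That call was lost in each of the 4 fits without 1 control library, with an adjusted p of 0.0529 to 0.181, and in limma on TPM. ANXA1 was lower with siControl.1 by a log2 fold change of -0.50 (interval -0.91 to -0.10, edgeR adjusted p = 0.237). In SCaBER edgeR, DESeq2 and limma called 0 of 8, with 0 at an unadjusted p under 0.05 and 0.0672% of genes called by edgeR (8 genes, or 35 with the replicate block). Among the other annexin rows, ANXA9 shared the RT112 split of ANXA11, at 44.7 and 48.8 CPM with siControl.1, 15.0 and 14.7 CPM with siControl.2 and 13.7 to 25.1 CPM under the FOXA1 siRNAs. ANXA13 and the pseudogenes ANXA2P1 and ANXA2P3 had 0 counts in every library.

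The 22 genes of a list of annexin partners and membrane-repair factors moved in both directions. Between the lines under control siRNA 10 of 16 tested differed, 6 higher and 4 lower in RT112, beside 43.4% of all genes, with a median log2 fold change of -0.02. S100A10, the ANXA2 partner, was lower in RT112 as ANXA2 was, at 304 to 505 CPM against 609 to 877 CPM (log2 fold change -0.79, SE 0.17, edgeR adjusted p = 0.00136). S100A11, the ANXA1 partner, was at 753 to 989 CPM against 931 to 1483 CPM (-0.30, SE 0.15, edgeR adjusted p = 0.13). The S100 proteins S100A4 and S100A6 were higher in RT112, by 4.05 (SE 0.27) and 2.11 (SE 0.21) on the log2 scale. The plasminogen activator PLAT (2.65), the ESCRT-III subunit CHMP4B (1.61) and its adaptor PDCD6IP (0.98) were higher as well, whereas the ferlin MYOF, a membrane-fusion protein, was lower (-1.33). These 6 had edgeR adjusted p-values of 2.46e-08 to 0.00494.

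In RT112, 9 of 17 partners tested were called under siFOXA1.1 (3 higher, 6 lower) and 3 under siFOXA1.2 (2 higher, 1 lower), beside 32.6% and 2.04% of all 11986 genes. S100A10 was at 266 and 299 CPM under siFOXA1.1 and 495 and 527 CPM under siFOXA1.2, and the siRNAs differed by a log2 fold change of -0.74 (SE 0.12, edgeR adjusted p = 0.000144). ANXA2 differed between these libraries in the opposite direction. S100A11 did not pass there (-0.38, SE 0.14, edgeR adjusted p = 0.0546). In SCaBER, 2 of 18 partners were called under siFOXA1.1, beside 9.26% of all genes. They were PDCD6 (0.87, SE 0.23, edgeR adjusted p = 0.0262), a calcium-binding partner of ANXA7 and ANXA11, and the giant scaffold AHNAK (-0.71, SE 0.21, edgeR adjusted p = 0.0436), which binds ANXA2 with S100A10. Neither S100A10 nor S100A11 was called there. The formyl peptide receptor FPR2 had 0 CPM in all 16 libraries and FPR1 at most 5.97 CPM, in RT112 under siFOXA1.2.

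The genes whose levels followed ANXA1 most closely over the 16 libraries, after each line's mean was subtracted, were AMOTL1 (r = 0.91), CDS1 (0.86), SCRN1 (0.86), PGM2L1 (0.84) and PPFIBP1 (0.84), the highest of 9688 genes compared. The libraries share their siRNA groups and depth, and no p is given. ANXA1's RT112 rise, which chose the family, enters this measure, and within a line r was 0.86 to 0.94 for these 5 genes over the 8 RT112 libraries and 0.57 to 0.81 over the 8 SCaBER libraries. Of the 7 other members compared, the nearest to these were ANXA5 at 0.48 and ANXA3 at 0.42, and ANXA11 lay at -0.56.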

How the data were processed

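Libraries were QuantSeq 3' libraries (16, from the cell lines RT112 and SCaBER). The authors trimmed reads with TrimGalore 0.6.2 (minimum quality 20, minimum length 10), aligned them with STAR 2.6.1a to hg38 and deposited STAR read counts per gene on GENCODE 29, per the deposited configuration and the submitters' processing notes. The deposited TPM values divide those counts by a gene length that is not given in the sources used here. STAR counts a read only where it maps to a single place, so near-identical genes lose reads. Coordinates and start-site windows are RefSeq, GRCh38.p14.

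Counts were tested with edgeR 4.0.16 (quasi-likelihood, TMM scaling, filterByExpr by siRNA target, by line, or by both where lines were compared in response) in R 4.3.3, with siRNA means fitted per line, Benjamini-Hochberg adjustment over all genes tested and an adjusted p threshold of 0.05. The line difference was fitted on the siControl libraries and the difference in response on all 16. Each SE was derived as the absolute log2 fold change over the square root of the test's F statistic. Intervals are 95%, from these SEs and the fit's t quantiles. Library totals per group are given with the results, and the floor of 3 counts covers counting error only. Alternatives were library totals alone, DESeq2 1.42.0, no filter beyond 1 count, limma 3.58.1 on log2(TPM + 1), a replicate block and each library left out. The fits were tested on simulated data. The members and lists were chosen with earlier results of these data known.

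The text names the 10 members, FOXA1, and other annexin rows by level, with ANXA9 also by its line difference. The partner list is given by counts. Named from it are S100A10, S100A11 and its called genes in the SCaBER siFOXA1.1 comparison or the line difference. At most 6 called genes were named for each, by size of change. The 5 genes most like ANXA1 by Pearson r of log2 CPM are named too. Values within a batch are of log2(CPM + 0.5). The labels call the replicate number an experiment batch, so libraries were paired by it in the replicate block. Deviations of same-numbered libraries correlated at -0.0055 to 0.0165 over 6 pairs of siRNAs in RT112 and at 0.0079 to 0.211 in SCaBER, over 0.1 in 1 pair.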

Additional observations from a re-analysis of the deposited data

Results flagged for a closer look

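In 3 of 19 groups of 4 control libraries examined 1 library stood far from the others, where chance flags about 1 group in 20. For ANXA2 in RT112 controls it was siControl.1 replicate 1, at 1479 CPM against 1763 to 1821 CPM in the others. For ANXA3 in SCaBER controls it was siControl.1 replicate 2, at 118 CPM against 66.5 to 72.9 CPM. For ANXA6 in RT112 controls it was siControl.2 replicate 2, at 1.53 CPM against 0 in the others, where the 3 tied zeros fix the flag and the chance rate does not apply.

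The response of ANXA1 to siFOXA1.1 differed between the lines, RT112 exceeding SCaBER by 1.00 on the log2 scale in the fit over all libraries. ANXA1 was chosen for its rise in RT112, so this is no independent result.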

How the results depend on the processing

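Of 1598 member values under the alternatives, 1545 kept their side of the threshold, 21 lost a call and 32 gained one, and no called value turned its direction. Among values not called in the main fit, 74 of 1352 changed sign. The counts that moved by over 1.5 times, or from or to 0, were these. DESeq2 called 1 member for the line difference in the siFOXA1.2 response, against 0. Without a filter beyond 1 count, 5 members differed between the FOXA1 siRNAs in RT112, against 3, 2 for the line difference in the siFOXA1.1 response, against 1, and 1 for that of siFOXA1.2. With the replicate block, 2 members were called for the line difference in the siFOXA1.1 response, ANXA1 and ANXA3, and ANXA3 passed between the FOXA1 siRNAs in RT112. The block changed no other member call outside the RT112 siFOXA1.1 contrast with the controls, which chose the family. By limma on TPM, 0 members were called between the RT112 control siRNAs and 0 for the line difference in the siFOXA1.1 response. Of the alternatives chosen after seeing the data, siControl.1 alone as reference gave 2 members in RT112 under siFOXA1.2, ANXA1 and ANXA11. That contrast also served to choose the family, so the count tests nothing. With siControl.2 alone 0 were called for the line difference in the siFOXA1.1 response. Smaller moves were 4 members by DESeq2 and by limma between the FOXA1 siRNAs in RT112, against 3, and ANXA11 as the sixth member between the lines without a filter. In the RT112 siFOXA1.1 contrast with the controls 4 of 9 members passed the threshold, beside 32.6% of 11986 genes. The number of members was 5 by DESeq2, 6 by limma and 6 with the block. These counts describe the contrast that chose the family and test nothing. In it ANXA2 was lost in limma and ANXA10 without siFOXA1.1 replicate 1 or 2. Leaving out 1 library at a time, the number called ranged from 5 to 6 between the lines under control siRNA, 2 to 5 between the FOXA1 siRNAs in RT112, 0 to 1 between its control siRNAs, 0 to 1 in SCaBER under siFOXA1.1, 0 to 1 between the FOXA1 siRNAs in SCaBER and 0 to 2 for the line difference in the siFOXA1.1 response. ANXA1 lost that last call without SCaBER siFOXA1.1 replicate 1, SCaBER siControl.2 replicate 2, RT112 siControl.1 replicate 1, RT112 siControl.2 replicate 1 or RT112 siFOXA1.1 replicate 2. Without SCaBER siFOXA1.1 replicate 1, ANXA11 also differed between the FOXA1 siRNAs there, by -1.21 (adjusted p = 0.0037). The cause of these changes was not tested. Members at few counts (ANXA3, ANXA6, ANXA10 in RT112) are limited by depth.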
